A study of Mus musculus with 6 samples.

Results

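The MHC class I antigen presentation genes were followed here in a mouse pancreatic cancer cell line. They comprised H2-K1, H2-D1, B2m, Tap1, Tap2, Tapbp, Psmb8, Psmb9, Erap1 and Nlrc5, taken by gene symbol from the array's annotation with every probe kept apart. All 10 genes were matched, by 21 of the 34885 probes with 1 gene symbol, which stood for 19057 genes. The samples were 3 CD133+ and 3 CD133- populations of KPC001, a line derived from the KPC mouse model of pancreatic cancer. Both populations come from this 1 line and so share its tumour background. All 6 samples were grown in high-glucose medium with 10% serum and received no treatment. CD133 is a surface glycoprotein encoded by Prom1 and used to mark tumour-initiating cells. Total RNA of each sample was hybridised to 1 Illumina mouse bead array, and the labels do not say how the populations were separated or whether replicates came from cultures of their own. The p-values therefore cover only how far these samples vary, which may be technical. In bulk RNA, fewer cells with a transcript and less of it per cell cannot be told apart.

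MHC class I molecules show short peptides of intracellular proteins to CD8 T cells and natural killer cells. Proteasomes cut the proteins, and immunoproteasomes that carry Psmb8 and Psmb9 favour cuts that leave peptides fit for class I. Tap1 and Tap2 form the transporter that pumps the peptides into the endoplasmic reticulum, Erap1 trims them there, and Tapbp (tapasin) bridges the transporter to an empty class I molecule. The molecule itself is a heavy chain, H2-K or H2-D in the mouse, bound to the light chain beta-2 microglobulin (B2m). Nlrc5 is the transactivator of class I genes, and interferon-gamma induces most of the pathway. Low class I at the cell surface has been described in pancreatic tumours.

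Class I heavy chain and light chain transcripts were measured in both populations, and 0 of the 10 class I presentation probes bright enough to be tested passed the test of a difference between them, beside 1.53% of all tested probes. H2-D1 and B2m each had a pair of probes detected on all 6 arrays, and H2-K1 and Tapbp had 1 such probe each. No probe of Tap1, Erap1 or Nlrc5 was detected on any array. Of the 21 probes, 6 were detected on all arrays, 5 on some and 10 on none, where detected means a deposited p under 0.05 against the array's negative controls. Between 8 and 9 of the 21 were detected on a CD133+ array and between 8 and 10 on a CD133- array.

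Promoter sequences are shown for the 3 genes that make up the class I molecule itself, H2-K1, H2-D1 and B2m, since 5 of the 6 member probes detected on all arrays belong to them. They come from RefSeq (build GRCm38.p6), and promoter windows of 8 of the 10 genes were used here. Each stretch lies upstream of the annotated start and is written 5′ to 3′ on the gene's own strand. Capitals mark matches to GGGA and CC with any 4 bases between them, an NF-kappaB-like motif, and to AANNGAAA, an interferon regulatory factor-like motif, both on either strand. Capitals near the end mark TGACG and ATTGG, the cores of the X2 and Y boxes through which class I promoters are known to be controlled.
H2-K1: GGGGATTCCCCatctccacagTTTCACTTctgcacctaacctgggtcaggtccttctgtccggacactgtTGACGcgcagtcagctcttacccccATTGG
H2-D1: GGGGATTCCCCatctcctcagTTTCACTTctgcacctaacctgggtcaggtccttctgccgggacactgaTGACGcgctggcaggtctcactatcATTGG
B2m: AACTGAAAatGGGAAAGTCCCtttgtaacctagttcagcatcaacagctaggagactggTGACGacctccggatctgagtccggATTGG

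The H2-K1 stretch is at chr17:34000359-34000458 on the minus strand, the H2-D1 stretch at chr17:35262923-35263022 on the plus strand and the B2m stretch at chr2:122147550-122147638 on the plus strand. H2-K1 and H2-D1 were identical at 89 of the 100 bases shown. All 3 genes had TGACG and ATTGG exactly 20 bases apart on the sense strand. That arrangement occurred in 19 of 32851 RefSeq promoter windows, each of 300 bases of which 250 lie before the start (0.0578%), which belonged to 16 of 27025 genes. Among the members it was found in 3 of the 8 genes with a window, while the windows of Tap1, Tapbp, Psmb8, Psmb9 and Erap1 did not hold the pair. Of 12 other class I heavy chain genes with a window, H2-M3 held it. H2-Q7 had both cores in the same order on the sense strand at 19 bases, with TGACG at -64 to -60 and ATTGG at -40 to -36. The spacing was chosen after these promoters were read, and spacings of 19 and 21 bases occurred in 7 and 12 windows. The shorter motifs are common, with the NF-kappaB-like motif in 20.7%, AANNGAAA in 23.9%, TGACG in 20.8% and ATTGG in 37.4% of all windows on either strand. NF-kappaB-like matches on the opposite strands overlap each other, and no other printed matches overlap. A match describes letters and is not a measured binding site.

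**Figure D1:**
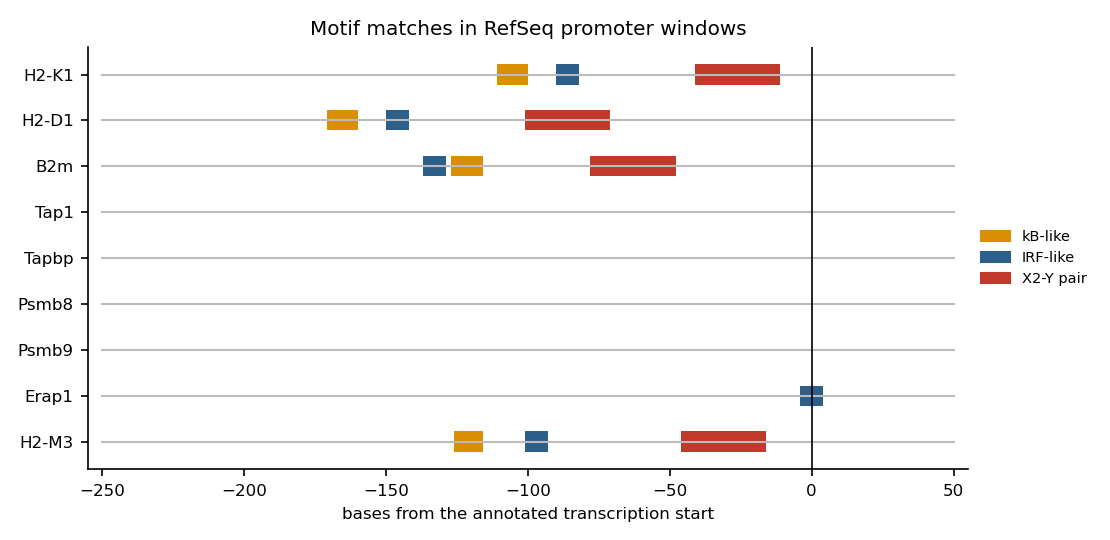
Motif matches in the RefSeq promoter windows of the 8 member genes that had one and of H2-M3, by distance in bases from the annotated transcription start (position 0), where blocks stand for NF-kappaB-like, interferon regulatory factor-like and X2-Y pair matches on either strand. H2-K1 (its upstream start), H2-D1, B2m and H2-M3 hold all 3 kinds, all upstream of the start.

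The background mean was higher on every CD133- array than on every CD133+ array, at 108.88 to 113.75 in CD133+ and 113.80 to 116.77 in CD133- samples. Its part in the results was not tested apart from the settings that changed the background correction. These left it out or used normal-exponential correction lacking negative controls. Between 17123 and 18057 of 45281 probes were detected per CD133+ array and between 17175 and 17767 per CD133- array, and the number of arrays limits the precision. The test covered 17219 probes, those detected on 3 or more arrays. Values below are log2 intensities after background correction and quantile normalisation unless another scale is named, and differences are CD133+ minus CD133- ± the standard error of limma's fit (n = 3 per group). Passing means that limma's p, adjusted after Benjamini and Hochberg across the 17219, was under 0.05. All 3 Prom1 probes were at background, with means of 4.37 to 4.47 in CD133+ and 4.39 to 4.53 in CD133- cells, so its transcript does not check the labels. The line's epithelial origin was visible in 15 of 17 epithelial and ductal marker probes tested, among them Krt8, Krt18, Krt19 and Sox9, while the Epcam probe was not detected. None of these 15 passed.

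B2m, the light chain shared by all classical class I molecules, had a pair of probes detected on all 6 arrays and far above background. On ILMN_1216746 its log2 intensity was 11.80, 11.62 and 11.68 in CD133+ replicates 1 to 3, against 11.64, 11.58 and 11.55 in CD133- replicates 1 to 3. The groups overlapped on this probe. The difference was 0.11 ± 0.09, or 1.08-fold (95% interval 0.94 to 1.24, adjusted p = 0.578), and it was 0.062 without CD133+ replicate 1 and -0.046 with a median shift between arrays. On ILMN_2739999 the values were 11.67, 11.59 and 11.66 in CD133+ and 11.55, 11.51 and 11.27 in CD133- samples. Here every CD133+ array lay above every CD133- array, CD133- replicate 3 being the lowest. The difference was 0.19 ± 0.10 (1.14-fold, interval 0.97 to 1.35, adjusted p = 0.388) and did not pass. It was 0.11 without CD133- replicate 3 and 0.051 with a median shift between arrays. Another B2m probe, ILMN_2670561, lay at background on all 6 arrays. The deposited intensities of the detected pair were 21.5 to 32.5 times the background mean of their array. The standard error over beads was 2.8% to 4.7% of the intensity for the pair, from 25 to 49 beads per array.

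H2-D1 encodes the H2-D heavy chain, which holds the peptide. Probe ILMN_2462745 gave 10.03, 9.77 and 9.79 in CD133+ and 9.69, 9.83 and 9.89 in CD133- samples. CD133+ replicate 1 was the highest and the groups overlapped, with a difference of 0.06 ± 0.11 (1.04-fold, interval 0.88 to 1.24, adjusted p = 0.818). Probe ILMN_2476267 gave 9.04, 9.04 and 9.08 in CD133+ and 9.19, 9.10 and 9.16 in CD133- samples. All CD133+ values on it were lower than all CD133- values, by a small margin, and the difference of -0.09 ± 0.08 did not pass (0.94-fold, interval 0.83 to 1.06, adjusted p = 0.606). The H2-D1 probes detected on all arrays therefore had differences of opposite sign, and neither passed. The sign of ILMN_2462745 turned to -0.11 under a median shift between arrays and to -0.021 without CD133+ replicate 1.

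An H2-D1 probe near background, ILMN_2944011, had the lowest difference of any member. It gave 5.31, 5.23 and 4.61 in CD133+ and 5.59, 6.36 and 5.33 in CD133- samples. The groups were just apart, the highest CD133+ and lowest CD133- value lying next to each other. The probe was detected on 2 CD133+ and 3 CD133- arrays and entered the test only with the CD133- arrays, where it was higher. CD133+ replicate 3 was not above background, and CD133- replicate 2 was the highest. The difference was -0.71 ± 0.29 (0.61-fold, interval 0.38 to 0.97), with adjusted p = 0.274 in limma's fit. It was -0.41 without CD133- replicate 2, -0.93 without CD133- replicate 3, -0.74 with a median shift between arrays and -0.24 without background correction. In the main fit the H2-D1 probes detected on all arrays gave 0.06 and -0.09. On the scale of the deposited intensities the probe read 139, 135 and 114 in CD133+ and 152, 183 and 140 in CD133- samples, beside bead errors of 4.53 to 10.7. The remaining probe, ILMN_2608090, was at background throughout.

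H2-K1, which encodes the H2-K heavy chain, was measured by 1 of its 3 probes. ILMN_2588139 gave 6.06, 6.08 and 5.93 in CD133+ and 6.36, 6.08 and 6.08 in CD133- samples. The groups overlapped, and CD133- replicate 1 stood highest. The difference was -0.15 ± 0.11 (0.90-fold, interval 0.76 to 1.07, adjusted p = 0.544). It was -0.054 without CD133- replicate 1, -0.19 without CD133- replicate 3, -0.21 with a median shift between arrays and -0.062 without background correction. The probe was dim, with deposited intensities 1.39 to 1.65 times the background mean of their array. ILMN_2634603 and ILMN_2795520 were not detected on any array. Heavy chain genes are near copies of each other and vary between mouse strains, and neither the probe sequences nor the strain were used here. Signal of an H2-K1 or H2-D1 probe thus cannot be assigned to that gene alone.

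**Figure D2:**
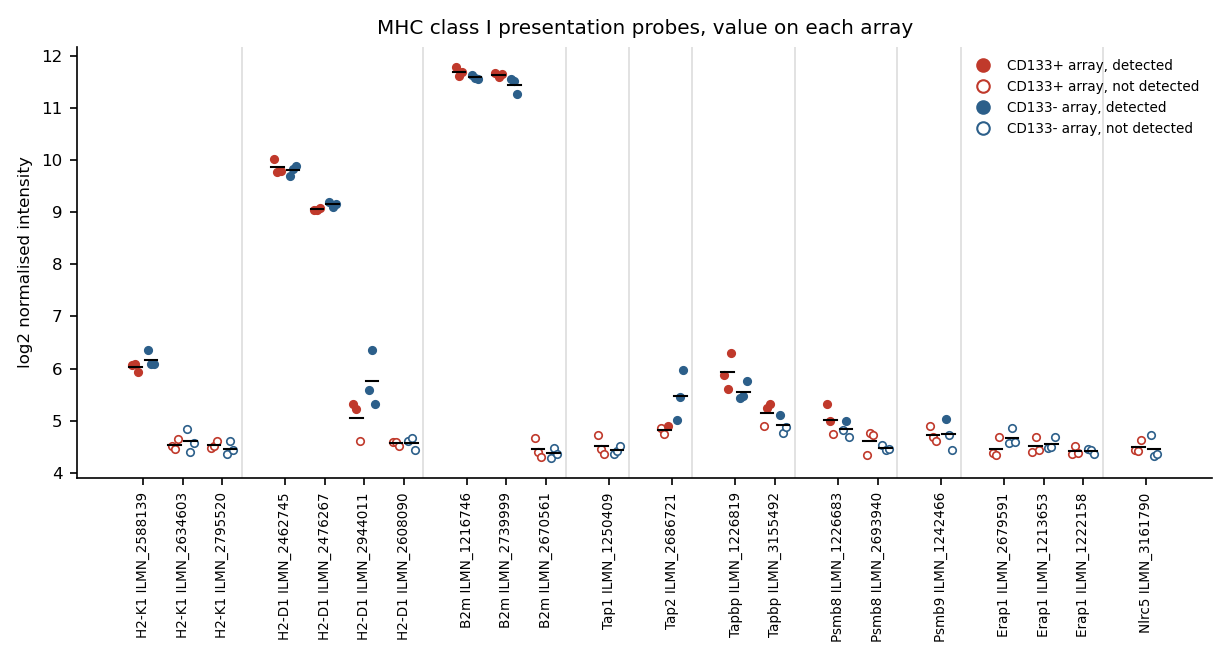
Log2 normalised intensity (y axis) of all 21 probes of the 10 class I presentation genes (x axis), CD133+ arrays in red left of CD133- arrays in blue, with filled points detected, open points not, and black bars for group means. A pair of B2m probes and a pair of H2-D1 probes lie between 9.04 and 11.80 in both populations, and the 11 probes that were not tested lie between 4.28 and 5.04.

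Tap2, the second chain of the peptide transporter, had the smallest p among the members. Its single probe, ILMN_2686721, gave 4.86, 4.74 and 4.89 in CD133+ and 5.02, 5.45 and 5.96 in CD133- samples. It was detected on 1 CD133+ array and on all 3 CD133- arrays, and the groups did not overlap. Tap2 thus entered the test only through the CD133- arrays, where it was higher. CD133- replicate 3 was the highest. The difference was -0.65 ± 0.22 (0.64-fold, interval 0.45 to 0.91), at an unadjusted p of 0.0188 and an adjusted p = 0.197 in limma's fit. It was -0.40 without CD133- replicate 3, down to -0.88 with another array left out, and -0.20 without background correction. Deposited intensities were 126, 123 and 122 in CD133+ and 133, 142 and 161 in CD133- samples, where the background mean was 109 to 117. The probe rested on 18 to 36 beads per array, and 18 was the lowest count of any member probe on any array.

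Tap1, the partner of Tap2 in the transporter, was not detected. ILMN_1250409 gave 4.73, 4.46 and 4.35 in CD133+ and 4.37, 4.42 and 4.52 in CD133- samples, with detection p-values from 0.140 to 0.777. No fold is given where both groups lie at background. A probe at background shows a level too low for this array to measure, or a probe that binds poorly, and does not show that the transcript is absent.

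Tapbp encodes tapasin, which holds empty class I molecules at the transporter until a peptide fits. ILMN_1226819 was detected on all 6 arrays and gave 5.89, 5.61 and 6.31 in CD133+ and 5.43, 5.48 and 5.76 in CD133- samples. The groups overlapped, CD133+ replicate 3 being the highest and CD133- replicate 1 the lowest. The difference was 0.38 ± 0.18 (1.30-fold, interval 0.97 to 1.75, adjusted p = 0.348). It was 0.20 without CD133+ replicate 3, 0.54 without CD133+ replicate 2 and 0.14 without background correction. ILMN_3155492 was detected on 2 CD133+ arrays and 1 CD133- array and gave 4.89, 5.24 and 5.33 in CD133+ and 5.10, 4.76 and 4.87 in CD133- samples. Its difference was 0.24 ± 0.14 (1.18-fold, interval 0.94 to 1.49, adjusted p = 0.453), and it was 0.15 without CD133+ replicate 3, 0.37 without CD133+ replicate 1 and 0.069 without background correction. Both Tapbp probes thus had values of the same sign, and neither passed.

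Psmb8 and Psmb9 are catalytic subunits of the immunoproteasome, which interferon-gamma induces in place of constitutive ones. Psmb8 probe ILMN_1226683 gave 5.32, 5.0 and 4.75 in CD133+ and 4.82, 4.99 and 4.69 in CD133- samples, and it was detected on 2 CD133+ arrays and 1 CD133- array. The groups overlapped, with a difference of 0.19 ± 0.16 (1.14-fold, interval 0.88 to 1.47, adjusted p = 0.604). It was 0.040 without CD133+ replicate 1, 0.33 without CD133+ replicate 3, 0.12 without CD133- replicate 3 and 0.054 without background correction. The other Psmb8 probe, ILMN_2693940, was at background. Psmb9 probe ILMN_1242466 gave 4.90, 4.68 and 4.61 in CD133+ and 5.04, 4.73 and 4.44 in CD133- samples. It was detected on CD133- replicate 1 alone and was not tested. In RefSeq's gene order (GRCm38.p6) Psmb9, Tap1, Psmb8 and Tap2 are neighbours on chromosome 17, inside the class II region between H2-DMb1 and H2-Ob.

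Erap1, the aminopeptidase that trims peptides to class I length, had 3 probes and was detected by none. Means were 4.42 to 4.51 in CD133+ and 4.42 to 4.67 in CD133- cells. Nlrc5, the class I transactivator, was likewise at background, with 4.43, 4.42 and 4.62 in CD133+ and 4.72, 4.32 and 4.35 in CD133- samples on ILMN_3161790. The 11 untested member probes read 0.90 to 1.15 times the background mean in the deposited intensities. When all probes were tested without a filter, 0 of the 21 passed and the smallest adjusted p was 0.353.

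**Figure D3:**
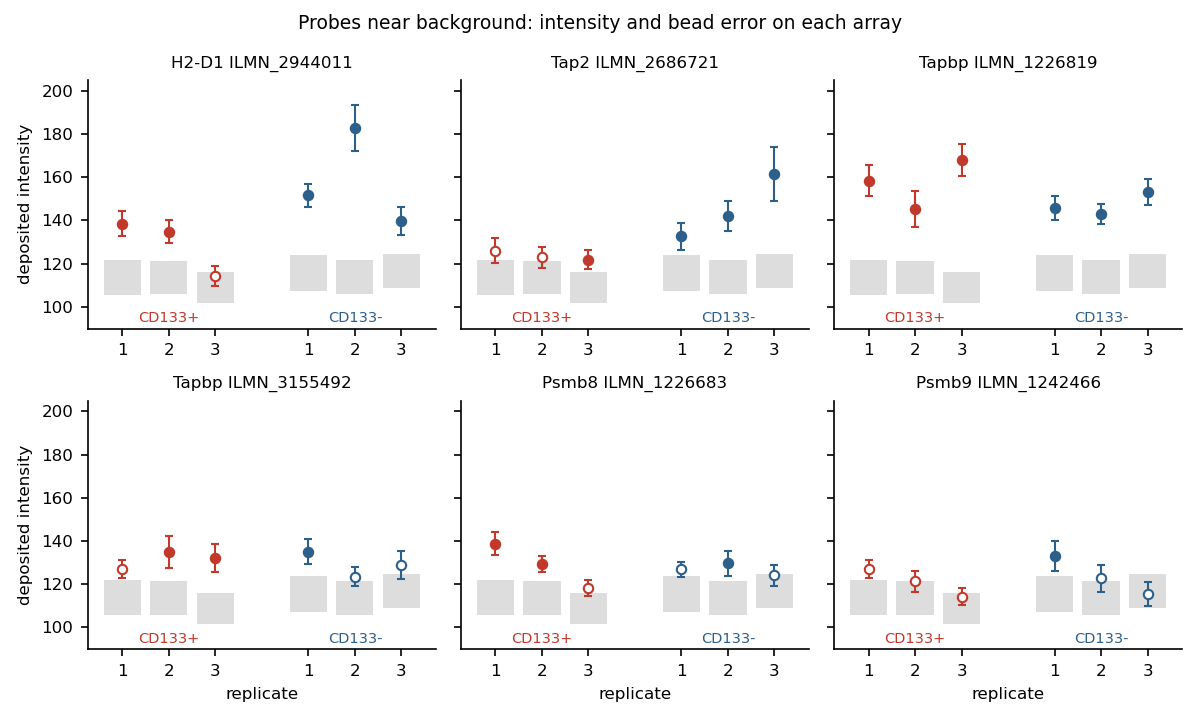
Deposited intensity (y axis) of 6 probes near background that were detected at least once, on each replicate array (x axis), CD133+ in red and CD133- in blue, with bead standard errors, open points where not detected, and grey blocks for 1 SD either side of each array's background mean. Tap2 and H2-D1 ILMN_2944011 are higher in CD133- arrays, at up to 161 and 183.

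Across the 10 tested member probes, which stood for 6 genes, 0 passed in limma's fit, 0 higher and 0 lower, beside 1.53% of all tested probes. At an unadjusted p under 0.05 there were 2 (Tap2 and H2-D1 ILMN_2944011, both lower), where 16.6% of all tested probes reached that level, 9.08% higher and 7.53% lower. Both probes reached the 3 arrays needed for testing only with the CD133- arrays, where they were higher. Their p-values, and the gaps between their groups, therefore depend on that filter. Groups did not overlap on 4 of the 10, beside 23.1% of all tested probes. The median difference of the 10 was 0.09 and that of all tested probes -0.02, with 6 member probes above 0 and 4 below. Without CD133+ replicate 1 the members' median was 0.0096, and under a median shift both medians moved, to -0.08 and -0.12. Members did not share a direction: both B2m, both Tapbp and the Psmb8 probe lay above 0, while Tap2, H2-K1 and 2 of 3 H2-D1 probes lay below. Of these signs 2 turned under the median shift, for B2m ILMN_1216746 (-0.046) and H2-D1 ILMN_2462745 (-0.11), and that of the H2-D1 probe also without CD133+ replicate 1. With 15 other settings 0 member probes passed, and the smallest adjusted p was 0.0610, for H2-D1 ILMN_2944011 with a variance trend and robust estimation.

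**Figure D4:**
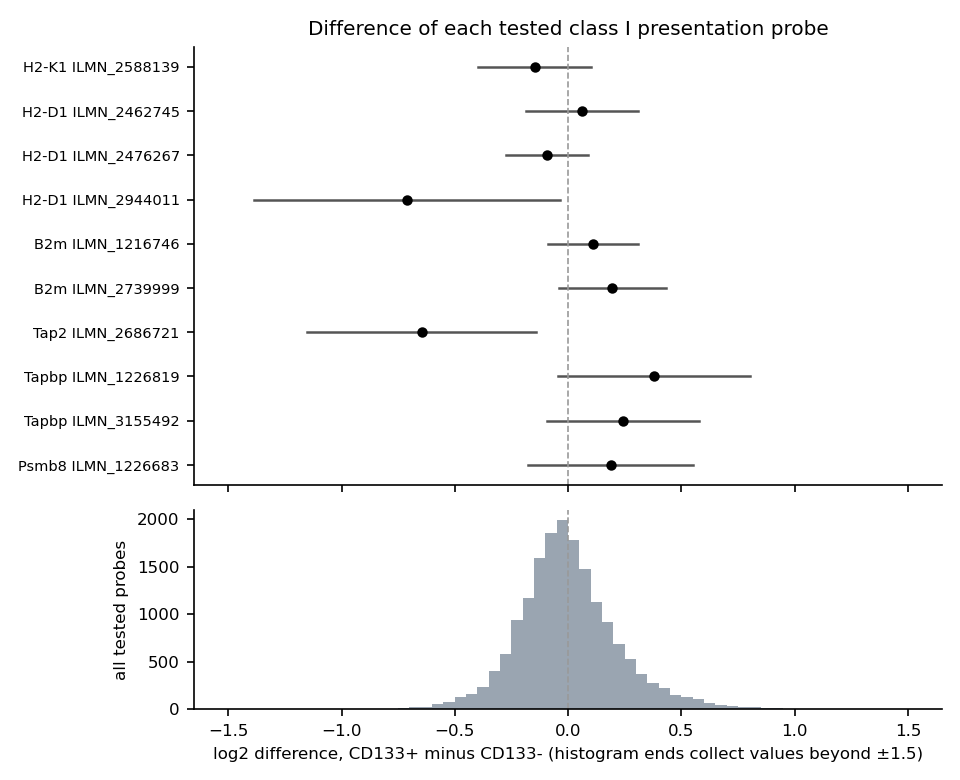
Upper panel, log2 difference (CD133+ minus CD133-, x axis) of the 10 tested class I presentation probes, with 95% intervals from limma's fit, not adjusted for the number of probes, and lower panel, histogram of the same difference over all 17219 tested probes (y axis, number of probes). Tap2 at -0.65 and H2-D1 ILMN_2944011 at -0.71 have the widest departures from 0 and neither passed.

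The rest of the class I pathway was described through 63 further genes in 4 lists grouped by role, of whose 116 probes 62 were tested. Of these 62 probes 1 passed higher in CD133+ cells, beside 1.25% of all tested probes, 0 passed lower, beside 0.279%, and 61 did not pass. At an unadjusted p under 0.05 there were 7 higher and 7 lower, beside 9.08% and 7.53% of all tested probes. The median difference of the 62 was -0.03.

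Among other class I heavy chains 0 of 10 tested probes passed, for 8 of 19 genes. H2-M3, which presents formylated peptides, averaged 7.46 ± 0.09 in CD133+ and 7.21 ± 0.18 in CD133- cells (SD, n = 3 each), a difference of 0.25 ± 0.11. H2-T23, which encodes the Qa-1 molecule that natural killer cells read through an inhibitory receptor, had -0.32 ± 0.16, -0.02 ± 0.10 and 0.09 ± 0.09 on its 3 probes. Hfe, a class I-like protein of iron regulation, had -0.29 ± 0.17. At 7 genes, H2-M2, H2-Q8, H2-Q10, H2-T3, H2-T18, H2-T22 and H2-T24, no probe was detected on any array.

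In the peptide loading list 1 of 8 tested probes passed, higher in CD133+ cells, beside 1.25% of all tested probes. At an unadjusted p under 0.05 in limma's fit there were 1 higher and 3 lower, beside 9.08% and 7.53% of all tested probes. Of the 8 differences 6 lay below 0. Ganab, the catalytic subunit of glucosidase II that trims sugars on new glycoproteins so that they can bind the loading chaperones, rose on ILMN_1225535. That probe averaged 8.31 ± 0.07 in CD133+ and 7.87 ± 0.02 in CD133- cells (SD, n = 3 each), with a difference of 0.44 ± 0.08 and limma adjusted p = 0.0492. The groups did not overlap there. The 2 other tested Ganab probes gave -0.18 ± 0.10 and -0.21 ± 0.09, so the gene's probes disagreed in sign. The call was lost without any 1 of the 6 arrays (adjusted p = 0.118 to 0.143). In those fits 7 to 14 of all tested probes passed. A median shift (0.215), no filter on dim probes (0.0865) and the replicate number as a block (0.132) also ended the call. The call held without background correction (0.00141), with the authors' intensities (0.000939) and with a variance trend and robust estimation (0.00228). Detection at 0.01 on all arrays (0.0183), normal-exponential correction lacking negative controls (0.0370) and cyclic loess (0.0441) kept it as well. Canx and Uggt1 were not detected.

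Of 18 tested probes for peptide supply, which cover proteasome parts and cytosolic peptidases, 0 passed. Thop1, a cytosolic peptidase that degrades class I peptides, averaged 8.64 ± 0.07 in CD133+ and 9.12 ± 0.11 in CD133- cells, a difference of -0.48 ± 0.09 (adjusted p = 0.0564). Blmh, another cytosolic peptidase, had -0.37 ± 0.09, and Psme2, a subunit of the proteasome activator that interferon-gamma induces, had 0.26 ± 0.09. Psmb10, the remaining immunoproteasome subunit, was detected on all 6 arrays by both of its probes, unlike Psmb8 and Psmb9. It had -0.06 ± 0.09 and -0.07 ± 0.08.

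Of 26 tested probes for transcription factors and interferon signalling 0 passed. Ifngr2, a chain of the interferon-gamma receptor, had 0.58 ± 0.16 on ILMN_2592709, which did not pass (adjusted p = 0.125), beside 0.14 ± 0.13 and -0.31 ± 0.14 on its other probes. Irf1, a transcription factor that interferon-gamma induces, had 0.29 ± 0.09 on 1 probe and between -0.04 and 0.06 on 3 others. Ezh2, a Polycomb methyltransferase known to silence class I genes, had 0.35 ± 0.12 and -0.09 ± 0.10. Atf1, Ifnar1, Rfx5, Rfxank and Socs1 were not detected on any array.

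**Figure D5:**
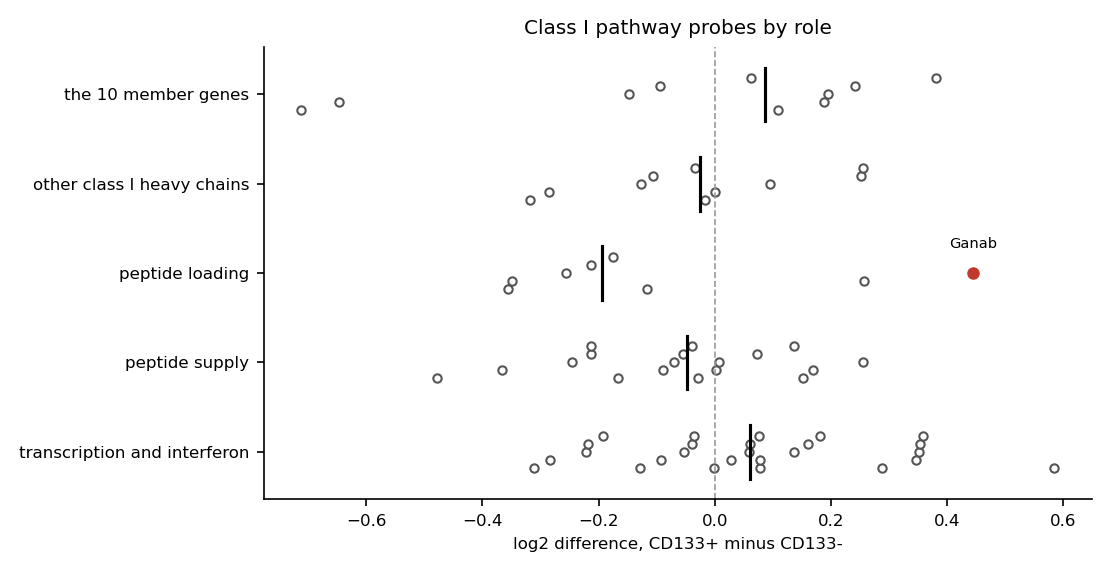
Log2 difference (CD133+ minus CD133-, x axis) of each tested probe of the 10 member genes and of the 4 lists of other class I pathway genes (rows), with black bars for medians, open points for probes that did not pass and a filled one for the probe that did. Ganab at 0.44 is the 1 probe that passed, in a list whose median is -0.19.

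Genes that mark professional antigen presenting cells and other leukocytes were mostly at background. None of 16 class II presentation probes was tested, and 12 of them, including those of Ciita and Cd74, were not detected on any array. Their summed deposited intensity, not corrected for background, was 1764 to 1863 in CD133+ and 1867 to 1886 in CD133- samples, and the background mean was likewise higher on every CD133- array. Of 28 leukocyte marker probes 19 were not detected on any array, 3 were tested and 0 passed. Those were Cd14, Csf1r and Fcer1g. Cd14 averaged 10.17 ± 0.12 in CD133+ and 10.05 ± 0.05 in CD133- cells, a difference of 0.12 ± 0.09. Csf1r had -0.25 ± 0.11 and was detected on 1 CD133+ and 3 CD133- arrays. Fcer1g had -0.34 ± 0.08 (limma adjusted p = 0.106), with 0 CD133+ and 3 CD133- arrays detected and groups that did not overlap. It entered the test only through the CD133- arrays, where it was higher. Its p and the gap between its groups therefore depend on that filter and are no separate evidence of a difference. Of 22 fibroblast and endothelial probes 3 were tested and 0 passed. Those were Col1a1 (-0.27 ± 0.13), Kdr (0.06 ± 0.17) and Eng (-0.36 ± 0.09). Col1a1 was detected on all 6 arrays, with means of 6.84 in CD133+ and 7.11 in CD133- cells. Eng was detected on 0 CD133+ and 3 CD133- arrays, so it too entered the test only through the group where it was higher.

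The joint profile of the members over the 6 arrays was also compared with other genes, as a description only. It was the mean of 6 genes' centred values, 1 probe each. Its highest Pearson correlations, among 14742 other named probes, were with Sgk2 (0.992), Syncrip (0.980), Fis1 (0.977), Zbtb7b (0.974) and Uhrf1bp1 (0.973). Those 5 probes differed by -0.08 to 0.00 between the populations. The points are 6 arrays shared by all the genes, and no test was made of these correlations. They were picked as the highest of 14742, so values this high do not show shared regulation with the members.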

How the data were processed

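Per the file headers, the deposited table gave for each probe and array an average bead intensity (linear, without normalisation or background subtraction), a bead standard error in the same signal units, a count of beads and a detection p-value. A second table held intensities processed by the authors, and the sources used here do not name the method. In limma 3.58.1 (R 4.3.3) the neqc function estimated negative controls through those p-values, corrected background with an offset of 16, and applied quantile normalisation and log2. The offset makes differences of dim probes smaller. Detected probes (p under 0.05, 3 or more arrays) went through lmFit and eBayes, two-sided and without covariates, and the pipeline was tested on simulated data. Symbols are those of the platform's annotation, possibly outdated, and promoters those of RefSeq (GRCm38.p6).

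Groups follow the population named in each sample's label, and an unnumbered title was read as replicate 1. The members, lists and naming rule were chosen with earlier results of these data known. The rule named all members, every other pathway gene that passed, or, in a list with none, the 3 genes with the smallest p, and undetected genes; Psmb10 and Cd14 were added after their values were seen. Alternatives covered background, normalisation, filter, variance model, single arrays left out and the replicate number as a block.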

Additional observations from a re-analysis of the deposited data

How the results depend on the processing

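Over 15 alternatives 0 member probes passed in each, and 143 of 146 probe values kept their sign and their side of the threshold. With a median shift H2-D1 ILMN_2462745 turned to -0.11 and B2m ILMN_1216746 to -0.046, while all tested probes together had a median of -0.12. With 1 array left out that H2-D1 probe ranged from -0.021 to 0.11. The number of other class I pathway probes past the threshold (1) became 7 without background correction, 2 with normal-exponential correction lacking negative controls, 6 with the authors' intensities, 3 with detection at 0.01 on all arrays and 6 with a variance trend and robust estimation. The median shift, testing without a filter and leaving out any 1 array (0 to 0) each gave 0. Over all tested probes the count of 264 (216 higher, 48 lower) became 1157 (836 and 321) with the authors' processed intensities, 1110 (748 and 362) without background correction, 35 (25 and 10) with a median shift and 113 (98 and 15) without a filter. It was 555 (421 and 134) with detection at 0.01, 1096 (733 and 363) with a variance trend and 7 to 14 with 1 array left out. Testing without a filter covered 45281 probes and detection at 0.01 covered 13339, and leaving out an array left 5 arrays with the same 17219 probes. The cause was otherwise not tested. Under a replicate block 6 probes passed in all (3 and 3), 0 of them members and 0 other class I pathway probes, with Ganab ILMN_1225535 at adjusted p = 0.132 in limma's fit. Samples of the same number shared no clear deviation (correlations 0.0018 to 0.020, beside -0.050 to 0.033 for different numbers). This does not show whether the numbers pair the samples, and the main fit treats them as unpaired. Signal over background left 10 of 21 member probes tested (47.6%), beside 42.3% of all probes with 1 gene symbol.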
